A study of Mus musculus with 8 samples.

Results

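Colgalt2, Pnmt, Adgrb1, Lrrc17, Nlrc4, Mbl2, Mfap1b, Odr4 and Tep1 are 9 genes outside chromosome 4, the chromosome of Arid1a, whose transcripts were much lower in mouse oocytes without BAF250a, at the germinal vesicle (GV) stage, at the metaphase arrest of the second meiosis (MII), or at both. They were picked for that difference from the read counts of these same libraries, so their knockout and control levels are described here without a test. The table holds 54838 gene entries, 15572 of which had enough reads to be fitted, and all 9 genes were among these. Each of the 4 groups had 2 libraries of total RNA: wildtype oocytes (control) and BAF250aGKO oocytes (knockout), each at GV and at MII, all from the C57BL/6 strain. The knockout was driven by Gdf9-cre, a recombinase under the promoter of an oocyte growth factor, so the deletion is placed in oocytes and not in the surrounding granulosa cells. The labels give no age, no sign that replicates came from separate animals and no statement of whether the controls carried floxed alleles or Cre. Each library pooled 5 to 10 oocytes, so fewer oocytes that hold a transcript and less transcript in each oocyte cannot be told apart.

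BAF250a, the product of Arid1a, is the large ARID subunit of the BAF (SWI/SNF) complex, which moves and ejects nucleosomes and so opens promoters and enhancers. Growing oocytes transcribe and store maternal RNA, the full-grown GV oocyte falls silent, and from the resumption of meiosis to MII the RNA pool changes mainly by polyadenylation, translation and decay. The 9 genes have no common pathway. Colgalt2 modifies collagen in the endoplasmic reticulum, Lrrc17 and Mbl2 are secreted, Adgrb1 is a cell-surface receptor, Pnmt and Nlrc4 act in the cytosol, Odr4 sits in the endoplasmic reticulum membrane, Mfap1b belongs to the spliceosome, and Tep1 is part of vault and telomerase particles.

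Oocyte markers were high in all libraries: 12 of 12 were detected in each group, with summed levels of 42110 to 50330 CPM (reads scaled to a library of 1e6) at GV and 17900 to 21180 CPM at MII. Arid1a in the knockout was at 2.12% of its control mean at GV and 1.88% at MII. Libraries held 19587421 to 33289150 reads in genes, and 3 reads, the limit that a count of 0 allows, correspond to 0.0894 to 0.170 CPM. Mitochondrial transcripts took 6.03% to 6.93% of the reads in control MII and 3.03% to 4.41% in knockout MII, against 0.105% to 0.446% at GV in both genotypes. Of 17 granulosa and cumulus markers tested, 2 were lower at MII (edgeR quasi-likelihood F-test, which called 3.44% of all genes lower there), where their median was -2.0 (log2); at GV it was -0.57. At MII 8 of these 17 markers had an unadjusted p below 0.05 (edgeR), against 22.2% of all genes. DESeq2, a second test, called 5 of them there and 1773 of all genes. The summed level of the markers was 215 to 226 CPM in the control and 150 to 200 CPM in the knockout at GV, and 208 to 227 against 161 to 182 CPM at MII. Fshr had 0 reads at MII in both genotypes, and Ptx3 and Tnfaip6 had 0 at GV. Foxl2, Inhba, Ptgs2 and Amhr2 were read at MII in the control only. Inhbb at MII and Ptgs2 at GV were read in the knockout only. The part of these differences in the losses described here was not tested.

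Promoter windows of 250 bases upstream of the RefSeq start (GRCm38.p6) were matched for Lrrc17, Nlrc4, Mbl2, Mfap1b and Odr4; none was matched for Colgalt2, Pnmt, Adgrb1 and Tep1. They differed in type, and 2 are shown, those of Lrrc17 and Odr4. Lrrc17 was the most abundant of the 9 genes at MII. Odr4 had the highest control MII level among the genes with 0 reads in both knockout MII libraries. Capitals mark matches on either strand to the TATA box (letters TATAAA), the CCAAT box (letters CCAAT) or the GC box (letters GGGCGG), and no 2 of these matches overlap in either window. The Lrrc17 window lies at chr5:21543277-21543526 on the plus strand and the Odr4 window at chr1:150393081-150393330 on the minus strand. A second RefSeq start of Odr4 gave an overlapping window at chr1:150393056-150393305, with 22 CpG and 63.2% GC, which is not shown.
Lrrc17: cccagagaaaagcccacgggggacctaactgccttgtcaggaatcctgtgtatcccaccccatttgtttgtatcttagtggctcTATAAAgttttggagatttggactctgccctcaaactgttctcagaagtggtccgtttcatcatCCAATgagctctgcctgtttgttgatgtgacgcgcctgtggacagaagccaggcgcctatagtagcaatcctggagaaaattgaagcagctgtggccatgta
Odr4: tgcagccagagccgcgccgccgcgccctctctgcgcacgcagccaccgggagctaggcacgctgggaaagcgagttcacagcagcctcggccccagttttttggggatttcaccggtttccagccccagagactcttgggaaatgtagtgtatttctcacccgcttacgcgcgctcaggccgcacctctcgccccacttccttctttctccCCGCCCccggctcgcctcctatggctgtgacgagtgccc
The Lrrc17 window had 5 CpG and 49.2% GC, with 1 TATA box and 1 CCAAT box match. The Odr4 window had 22 CpG and 64.8% GC, with 1 GC box match and neither of the other motifs. Nlrc4 had 2 CpG and Mbl2 had 3 CpG, both without a match to the 3 motifs, whereas Mfap1b had 9 CpG with 1 CCAAT and 1 GC box match. Over 32851 mouse windows of the same length the median was 6 CpG and 52.4% GC, and TATAAA was found in 12.4%, CCAAT in 33.8% and GGGCGG in 32.7%. CANNTG, the E-box that many oocyte and helix-loop-helix factors bind, was found in 66.2% of all windows and in each of the 5 except that of Odr4. The 5 matched genes thus ranged from CpG-poor to CpG-rich starts, and these matches are a description of letters, not of binding.

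In control oocytes, the 9 transcripts spanned a wide range of abundance. Per exon length (TPM, the length-corrected form of CPM), at GV Mbl2 was highest at 926 ± 48.9 (SD, n = 2 libraries, as for all values with ±), followed by Lrrc17 at 330 ± 44.3, Mfap1b at 87.1 ± 18.5, Pnmt at 14.6 ± 3.96 and Nlrc4 at 7.69 ± 0.267. Colgalt2, Tep1, Adgrb1 and Odr4 lay between 4.56 and 5.14 TPM, and their library ranges overlapped. At MII the order changed: Lrrc17 led with 609 ± 59.2 TPM, Mbl2 and Mfap1b overlapped at 122 ± 50.6 and 114 ± 5.38 TPM, and Nlrc4 and Odr4 overlapped at 17.6 ± 5.47 and 12.0 ± 2.74 TPM. Adgrb1 and Pnmt overlapped at 3.60 ± 1.51 and 1.99 ± 0.80 TPM. Colgalt2 and Tep1 were lowest and overlapped each other, at 0.645 ± 0.638 and 0.290 ± 0.145 TPM. From GV to MII, 4 of the 9 genes had a higher level in control oocytes (Lrrc17, Nlrc4, Mfap1b and Odr4) and Adgrb1 was level. Colgalt2, Pnmt, Mbl2 and Tep1 were lower at MII than at GV.

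The genes were separated by whether the knockout mean was more than 4-fold below the control mean at each stage. Colgalt2, Pnmt, Adgrb1, Lrrc17 and Nlrc4 met this at both stages, and Mbl2, Mfap1b, Odr4 and Tep1 at MII only. Nearest to that limit were Adgrb1 at MII, at 19.2% of control, on the inside, and Mbl2 at GV, at 38.2%, on the outside. At GV, 7 of the 9 genes had both knockout libraries below both control libraries, which 23.8% of all tested genes did, and 5 were more than 4-fold lower, against 5.74% of all genes. At MII all 9 met both, against 24.7% and 14.1% of all genes. These counts follow from how the genes were picked.

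**Figure D1:**
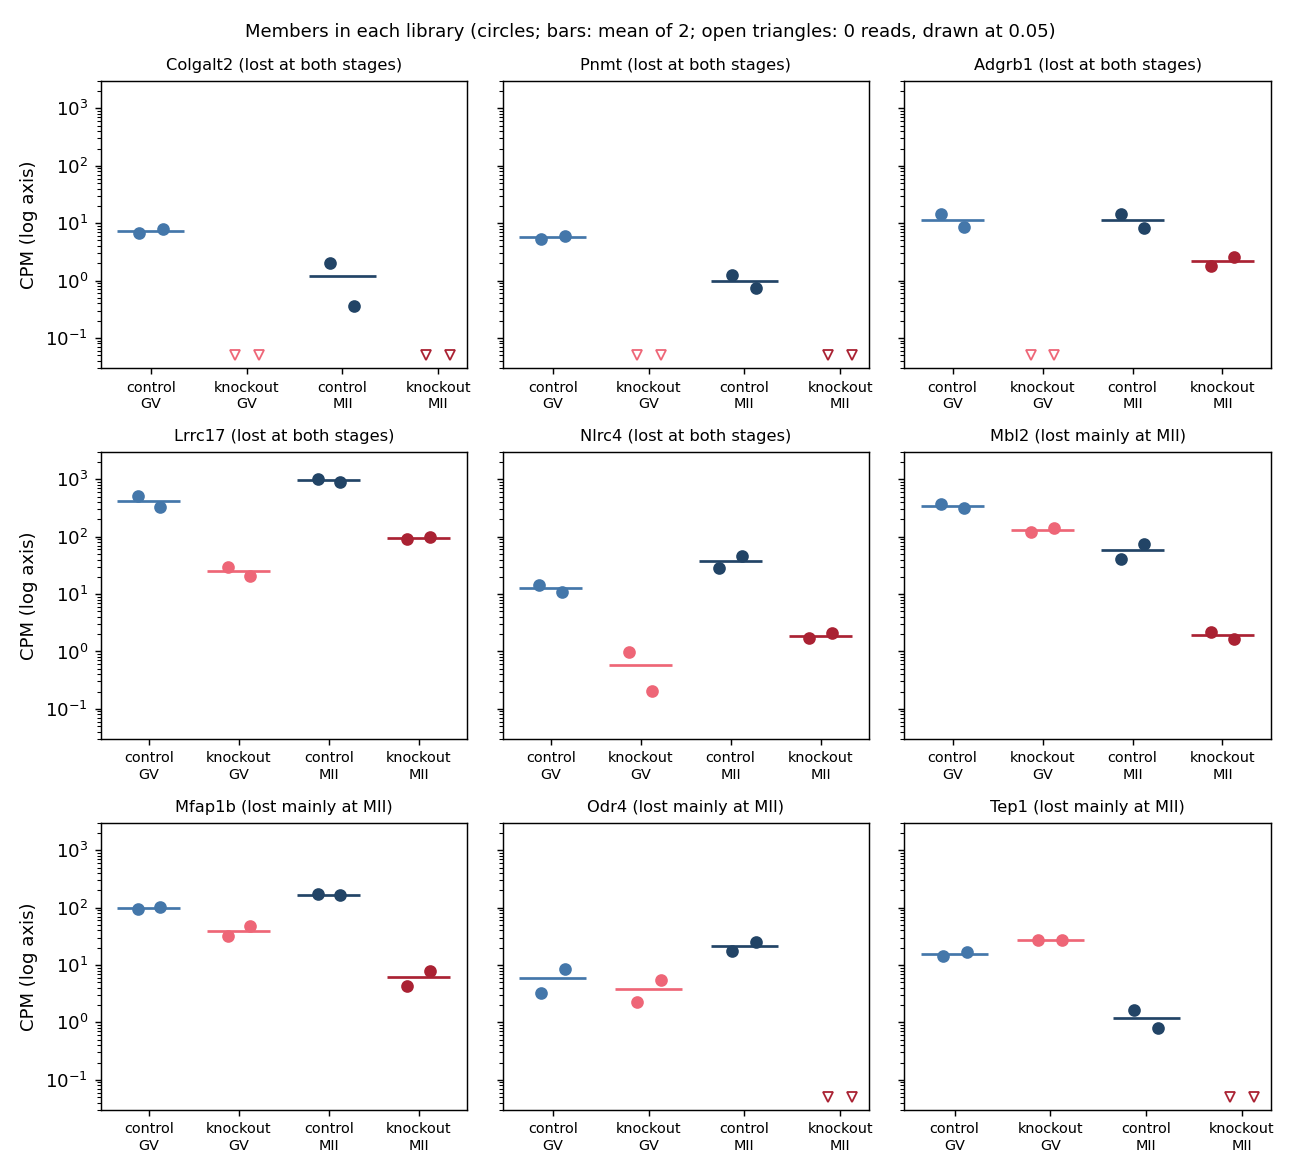
CPM (log axis) of the 9 genes in each library, with control and knockout libraries at GV and MII as circles, the mean of 2 libraries as a bar and libraries with 0 reads as open triangles at the foot of the axis. Colgalt2 and Pnmt sit at 0 in all 4 knockout libraries, Adgrb1 only in the 2 at GV, and Odr4 and Tep1 only in the 2 at MII.

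Colgalt2 (ENSMUSG00000032649, mm10 chr1:152399830-152510695, plus strand) adds galactose to hydroxylysine residues of collagen. It was read in every control library and in no knockout library. The control libraries had 144 and 189 reads at GV (7.30 ± 0.874 CPM) and 52 and 11 at MII (1.18 ± 1.16 CPM), and each of the 4 knockout libraries had 0. Against a floor of 3 counts per library, it was at least 49.7-fold lower at GV and at least 11.7-fold lower at MII. The smaller bound at MII follows from the lower control level, which rested on 52 reads in one control library and 11 in the other. Pnmt (ENSMUSG00000038216, mm10 chr11:98386450-98388181, plus strand) is the methyltransferase that turns noradrenaline into adrenaline, and it too was read in control libraries only. Its controls had 113 and 144 reads at GV (5.64 ± 0.558 CPM) and 33 and 22 at MII (0.998 ± 0.384 CPM), against 0 in all 4 knockout libraries. Its bounds were at least 38.4-fold lower at GV and at least 9.85-fold lower at MII. Among all tested genes, 80 had 0 reads in the 4 knockout libraries, and 18 of these had more than 3 reads in each control library. All 18 lie outside chromosome 4, and Colgalt2 and Pnmt had the highest control GV levels among them.

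Adgrb1 (ENSMUSG00000034730, mm10 chr15:74516195-74589465, plus strand), also called BAI1, is an adhesion receptor that binds phosphatidylserine on dying cells and signals to ELMO, DOCK and Rac. It was the gene whose loss was complete at GV and partial at MII. Control GV libraries had 310 and 208 reads (11.6 ± 4.01 CPM) and both knockout GV libraries 0, so it was at least 78.6-fold lower. At MII the controls had 377 and 245 reads (11.3 ± 4.53 CPM) and the knockouts 61 and 67 (2.17 ± 0.504 CPM). The MII difference was -2.38 ± 0.63 (fitted log2 fold change, knockout minus control, ± SE), the smallest of the 9 genes at that stage. Knockout MII oocytes thus held Adgrb1 reads in both libraries where knockout GV oocytes held none, while the control level was alike at the 2 stages. It passed the 4-fold limit at MII with all libraries and missed it without control MII library a, where the difference was -1.88.

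Lrrc17 (ENSMUSG00000039883, mm10 chr5:21543559-21575904, plus strand) is a secreted leucine-rich repeat protein known for restraining RANKL-driven osteoclast formation. It was the most abundant of the genes lost at both stages. At GV the control libraries had 10847 and 7744 reads and the knockout libraries 514 and 500, or 414 ± 127 against 24.9 ± 5.98 CPM. At MII the controls had 26235 and 27336 reads and the knockouts 3034 and 2613, or 956 ± 74.9 against 94.5 ± 5.85 CPM. The knockout kept 6.01% of the control level at GV and 9.89% at MII, with fitted differences of -4.06 ± 0.34 and -3.34 ± 0.33. Its level was higher at MII than at GV in both genotypes, 2.31-fold in control and 3.80-fold in knockout oocytes. As CPM is a share of the reads of a library, the amount of Lrrc17 RNA per oocyte was not measured. Lrrc17 lies inside the span of Fbxl13 on the other strand, but Fbxl13 itself held only 247 reads over all libraries.

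Nlrc4 (ENSMUSG00000039193, mm10 chr17:74425438-74459142, minus strand) is the adaptor that NAIP sensors of bacterial flagellin recruit into an inflammasome. It was lower by a like proportion at a lower level. The control GV libraries had 315 and 259 reads and the knockout GV libraries 17 and 5, or 12.7 ± 2.67 against 0.585 ± 0.535 CPM. The controls reached 740 and 1382 reads at MII and the knockouts 57 and 55, or 37.1 ± 12.2 against 1.89 ± 0.268 CPM. That left 4.59% of control at GV and 5.09% at MII, with fitted differences of -4.49 ± 0.68 and -4.29 ± 0.64. Like Lrrc17, it had a higher level at MII than at GV in control (2.91-fold) and knockout oocytes (3.23-fold). Nlrc4 is best known from myeloid cells, and of 20 blood and immune markers Ptprc, Adgre1 and Lyz2 had 0 reads in all 8 libraries. The markers with 0 reads numbered 6 in control and 9 in knockout oocytes at GV, and 8 and 13 at MII. Cd52, Tyrobp, Coro1a, C1qa, Cd74 and Spi1 were read at MII in the control only, and Hba-a1 in the knockout only. The summed level of these markers at GV was 73.4 to 78.9 CPM in the control and 43.9 to 59.4 CPM in the knockout. At MII it was 10.3 to 69.2 CPM in the control and 7.63 to 8.84 CPM in the knockout, with 1 of 9 tested markers called lower and a median log2 difference of -2.57. Of these 9, 5 had an unadjusted p below 0.05 at MII (edgeR, against 22.2% of all genes) and 2 were called by DESeq2. The part of these marker differences in the Nlrc4 difference was not tested.

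**Figure D2:**
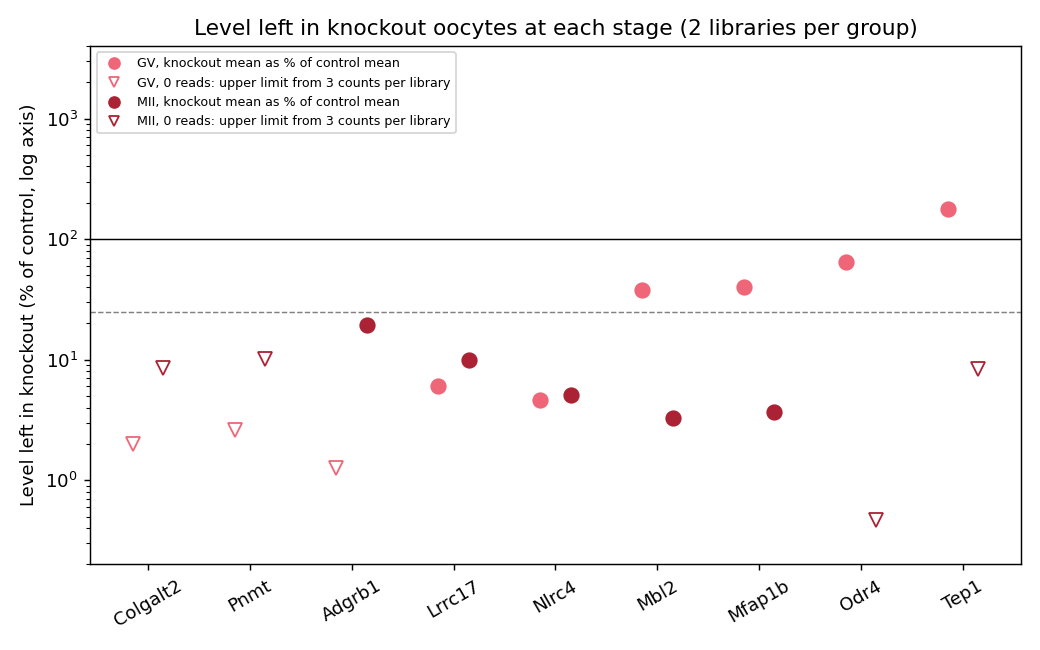
Knockout mean as a percentage of the control mean (log axis) for each gene at GV and MII, with open triangles for upper limits where both knockout libraries held 0 reads; the solid line marks equal levels and the dashed line a level 4-fold below control. Mbl2, Mfap1b, Odr4 and Tep1 lie above the dashed line at GV (38.2%, 40.4%, 64.5% and 178%) and below it at MII.

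Mbl2 (ENSMUSG00000024863, mm10 chr19:30232942-30239687, plus strand), mannose-binding lectin, recognises microbial sugars and starts the lectin pathway of complement. It was the most abundant of the 9 transcripts per length in control GV oocytes. Control GV libraries held 8070 and 7510 reads against 2139 and 3437 with the knockout, or 345 ± 42.4 against 132 ± 14.7 CPM. At MII the counts were 1053 and 2302 against 72 and 44, or 58.3 ± 25.1 against 1.90 ± 0.342 CPM. The knockout kept 38.2% at GV and 3.27% at MII, and the fitted differences were -1.39 ± 0.33 and -4.93 ± 0.39. Its MII level was 0.169 of the GV level in control and 0.0145 of it in knockout oocytes. The fitted difference was therefore lower at MII than at GV by 3.54 ± 0.48 on the log2 scale.

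Mfap1b (ENSMUSG00000048222, mm10 chr2:121460235-121474067, minus strand) is a mouse copy of the spliceosomal gene Mfap1, and its near-identical copy Mfap1a (chr2:121491911-121506665) lies beside it. Its GV counts were 2070 and 2419 in the controls and 555 and 1168 in the knockouts, or 98.7 ± 3.73 against 39.8 ± 11.9 CPM. Its MII counts were 4434 and 4960 against 145 and 212, or 167 ± 4.71 against 6.16 ± 2.61 CPM. The knockout kept 40.4% at GV and 3.69% at MII, with fitted differences of -1.31 ± 0.34 and -4.77 ± 0.40. Control oocytes had 1.69-fold more Mfap1b at MII than at GV, whereas knockout oocytes at MII had 0.155 of their GV level.

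The other copy did not pass the test at either stage. Mfap1a had 606 and 740 control reads and 473 and 982 knockout reads at GV, and 1267 and 2129 control reads and 1586 and 1419 knockout reads at MII, and the CPM ranges of the genotypes overlapped at both stages. Its difference was 0.19 ± 0.32 at GV (adjusted p = 0.955, edgeR quasi-likelihood F-test) and -0.24 ± 0.32 at MII (adjusted p = 0.73). The Mfap1b share of the reads of both copies was 77.0% ± 0.552 at GV and 73.9% ± 5.52 at MII in the control. In the knockout it was 54.2% ± 0.240 at GV and 10.7% ± 3.27 at MII, below every control library in each case. The summed level of both copies was 128 ± 5.80 CPM with and 73.5 ± 21.6 CPM without BAF250a at GV, and 227 ± 10.5 against 56.6 ± 7.08 CPM at MII.

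**Figure D3:**
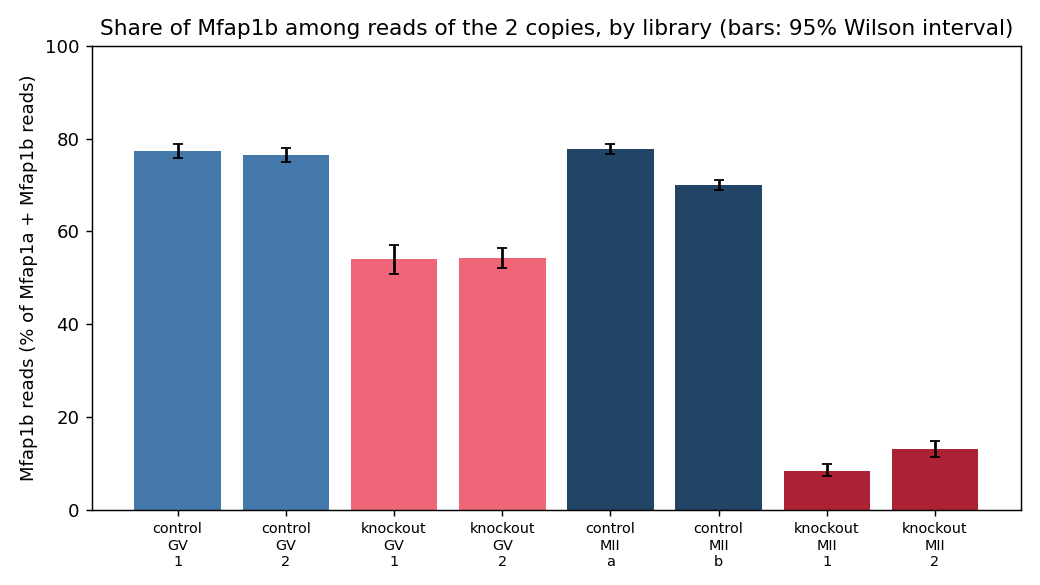
Mfap1b reads as a percentage of Mfap1a plus Mfap1b reads in each of the 8 libraries, with 95% Wilson intervals that cover counting error only. The 4 control libraries lie between 70.0% and 77.8%, the 2 knockout GV libraries at 54.0% and 54.3%, and the 2 knockout MII libraries at 8.38% and 13%.

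The reference transcripts of the 2 copies, of 3362 bases (Mfap1b) and 4198 bases (Mfap1a), share 3160 of 3278 aligned bases (96.4%). Of all 50-base windows of Mfap1b, 62.5% occur unchanged in Mfap1a, so a part of the reads from either copy cannot be placed, and how much was lost depends on the read length, which these sources do not give. The upstream windows are less alike, with 216 of 243 aligned bases identical (88.9%), and both are shown because the copies differed in their knockout levels. Mfap1b lies at chr2:121474024-121474273 and Mfap1a at chr2:121506657-121506906, both on the minus strand, and capitals mark the 34 bases of each that have no identical partner in the alignment.
Mfap1b: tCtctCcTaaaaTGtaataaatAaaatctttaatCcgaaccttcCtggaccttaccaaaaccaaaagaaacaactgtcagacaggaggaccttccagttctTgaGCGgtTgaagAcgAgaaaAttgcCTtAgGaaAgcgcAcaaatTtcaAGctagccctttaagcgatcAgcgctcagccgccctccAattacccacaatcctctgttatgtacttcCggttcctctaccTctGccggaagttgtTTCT
Mfap1a: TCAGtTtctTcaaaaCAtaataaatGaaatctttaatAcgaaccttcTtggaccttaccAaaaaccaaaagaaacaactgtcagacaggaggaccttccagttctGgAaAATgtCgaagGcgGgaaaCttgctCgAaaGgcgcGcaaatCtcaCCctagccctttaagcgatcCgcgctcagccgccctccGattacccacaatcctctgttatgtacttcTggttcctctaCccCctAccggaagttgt
The GC box match is present in both windows. The CCAAT match of Mfap1b, separated from it by a t, is absent from Mfap1a.

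Odr4 (ENSMUSG00000006010, mm10 chr1:150361305-150393080, minus strand) encodes a membrane protein of the endoplasmic reticulum that holds UFSP2, the protease of the ubiquitin-like modifier UFM1. At GV the genotypes overlapped, with 71 and 207 reads in control (5.99 ± 3.80 CPM) and 40 and 132 in knockout libraries (3.86 ± 2.25 CPM). At MII the controls had 462 and 765 reads (21.5 ± 5.31 CPM) and both knockout libraries 0, at least 212-fold lower, the largest bound of the 9 genes at either stage. Control oocytes had 3.60-fold more Odr4 at MII than at GV. The GV difference was -0.63 ± 0.66 and turned to 0.23 without control GV library 2 (from -1.39 to 0.23 over 13 alternatives). The start of Odr4 overlaps that of Tpr, a nuclear pore gene on the other strand with 15004 reads over all libraries, and the sources used here give no strand setting for the counting. Tpr differed by 0.31 at GV (adjusted p = 0.813, edgeR) and by 0.01 at MII (adjusted p = 1.0).

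Tep1 (ENSMUSG00000006281, mm10 chr14:50824059-50870560, minus strand) is a protein of vault particles that also binds telomerase RNA. It was read at a higher level in both knockout than in both control libraries at GV, and not at all in the knockout at MII. Control GV libraries had 308 and 396 reads (15.4 ± 1.62 CPM) and knockout GV libraries 486 and 666 (27.5 ± 0.0125 CPM), 178% of control with a fitted difference of 0.83 ± 0.48. At MII the controls had 42 and 24 reads (1.20 ± 0.582 CPM) and both knockout libraries 0, at least 11.9-fold lower. In control oocytes the MII level was already 0.0780 of that at GV. An antisense gene that overlaps the start of Tep1, Gm26782, held 538 reads over all libraries, and reads of the overlap cannot be told apart without strand.

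Chromosomal neighbours were examined to see whether the losses extended over a region. Of 54 protein-coding neighbours, the 3 nearest on each side of each gene, 39 were tested. At GV 1 of 39 passed, a higher one (2.56%, against 0.989% of all genes tested called in either direction and 0.597% called higher; edgeR quasi-likelihood F-test). At MII 3 of 39 passed (7.69%, against 5.14%), 2 higher (1.7% of all genes) and 1 lower (3.44%). An unadjusted p below 0.05 (edgeR) was found for 10 of 39 at GV and 13 of 39 at MII. These are larger shares than the 10.8% and 22.2% of all genes, but they count higher and lower genes together. The median log2 difference of the 39 was 0.21 at GV and 0.01 at MII, not a shift to lower levels. The shares that passed after adjustment rest on 1 and 3 genes. Most tested neighbours, among them all tested ones of Colgalt2, Adgrb1, Lrrc17, Nlrc4, Mbl2, Mfap1b and Odr4, did not pass at either stage. Of the 6 neighbours of Adgrb1 and the 6 of Odr4, only 2 each were tested. Beside Odr4, the untested Ptgs2 had 0 and 87 control MII reads and Pla2g4a 33 and 5, against 0 in knockout MII. The untested Hmcn1 went the other way at MII, with 0 control reads and 0 and 14 knockout reads.

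The neighbours that passed lay beside Tep1 and Pnmt, and 3 of them were higher in the knockout. Ttc5, a tetratricopeptide protein 38540 bases from Tep1, rose at GV from 0.260 ± 0.106 to 8.03 ± 0.216 CPM (4.91 ± 0.93, adjusted p = 0.0388, edgeR), a call lost when any 1 of the 4 GV libraries was left out (adjusted p from 0.223 to 0.325) and with library totals as the scaling (0.0801). Ccnb1ip1, a ubiquitin ligase of meiotic crossing-over 16327 bases from Tep1, rose at MII from 0 reads in both control libraries to 267 and 30 reads, at least 42.4-fold (adjusted p = 0.015, edgeR), and kept the call without any 1 library. Parp2, a DNA repair ADP-ribosyltransferase 2758 bases from Tep1, rose at MII from 2 and 11 to 171 and 22 reads (3.69 ± 0.89, adjusted p = 0.0417, edgeR), but the call held under only 1 of 8 omissions (0.0109 without knockout MII library 2; adjusted p up to 0.183 otherwise) and was lost in a fit of the MII libraries alone (0.211). Mien1, 49527 bases from Pnmt, fell at MII from 41 and 30 to 6 and 4 reads (-2.92 ± 0.69, adjusted p = 0.039, edgeR), and this call too held under only 1 of 8 omissions (0.033 without control MII library b; adjusted p up to 0.107 otherwise) and was lost with library totals (0.0523) and in a fit of the MII libraries alone (0.337). Tep1 itself was lost at MII, where Parp2 and Ccnb1ip1 rose.

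**Figure D4:**
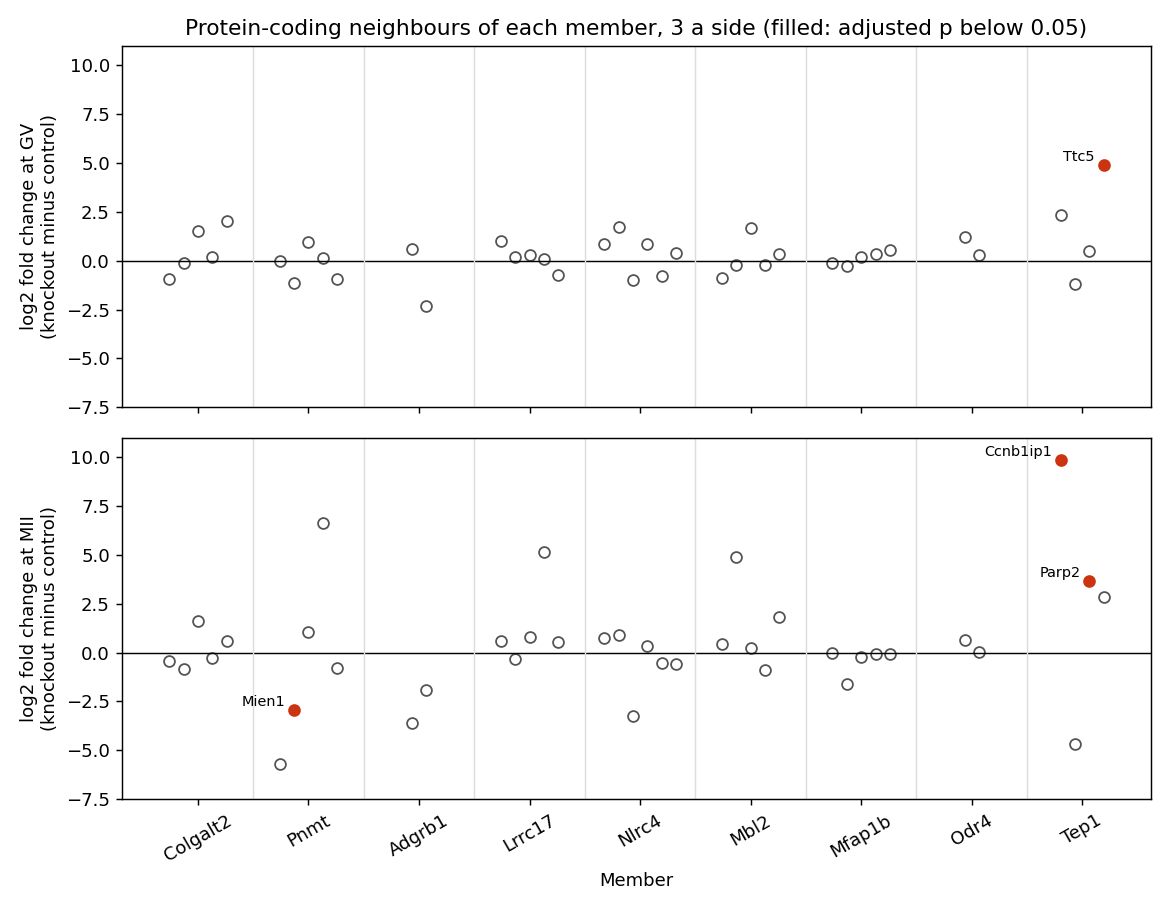
Fitted log2 fold change (knockout minus control) at GV (top) and MII (bottom) of the tested protein-coding neighbours of each gene, 3 a side. Points of each gene are in alphabetical order of symbol, not in order along the chromosome, and filled points passed at an adjusted p below 0.05. The passing neighbours are Ttc5 at GV and Mien1, Parp2 and Ccnb1ip1 at MII, and the height of the Ccnb1ip1 point is not a measured fold because its control libraries held 0 reads.

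A wider window of 500 kb, chosen after seeing the data, held 90 tested neighbours, of which 2 passed at GV (2.22%, against 0.989% of all genes) and 9 at MII (10.0%, against 5.14%), 4 higher (1.7% of all genes) and 5 lower (3.44%). Near Tep1 3 of 10 passed at MII, all higher: Parp2, Ccnb1ip1 and Pnp2, a purine nucleoside phosphorylase with 0 and 2 reads in control against 55 and 40 in knockout libraries (adjusted p = 0.0391, edgeR). Near Lrrc17 1 of 12 passed at MII (8.33%): Pmpcb, of the mitochondrial processing peptidase, fell from 5.66 ± 0.808 to 0.556 ± 0.520 CPM (-3.30 ± 0.60, adjusted p = 0.0147, edgeR). Near Pnmt 4 of 21 passed at MII (19.0%): Mien1, the ribosomal protein gene Rpl19 and the F-box gene Fbxl20 were lower and Med1, of the Mediator complex, was higher. Near Nlrc4, Xdh, the xanthine dehydrogenase of purine breakdown, was the 1 gene of 9 that passed at both stages; it lies 475242 bases away and was named after its values were seen. Xdh fell at GV from 61.3 ± 3.20 to 2.75 ± 0.677 CPM (-4.48 ± 0.58, adjusted p = 0.00555, edgeR), and at MII it had 68 and 145 reads in control against 3 and 0 in knockout libraries (adjusted p = 0.00292). Around Colgalt2, Adgrb1, Mbl2, Mfap1b and Odr4, none of the tested genes within 500 kb passed at either stage.

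Few partners in the pathways of the 9 genes passed the test. Of 100 genes in 9 lists of such partners, 74 were tested. At GV 0 passed with edgeR's quasi-likelihood test, 0 with DESeq2, and 3 had an unadjusted p below 0.05. At MII 4 passed (5.41%, against 5.14% of all genes), 1 higher and 3 lower, a share close to the background.

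Collagen modification, the pathway of Colgalt2, had 13 tested partners, a median of -2.94 at MII (all genes: -0.01) and 1 call, with 9 at an unadjusted p below 0.05 (22.2% of all genes) and 3 called by DESeq2, which called 1773 genes in all. Serpinh1, the collagen chaperone HSP47, fell at MII from 247 and 296 reads (9.64 ± 0.198 CPM) to 1 and 0 reads (adjusted p = 0.00397, edgeR), a ratio of control to knockout of 580 with a 95% counting interval of 104 to 22940. P4hb, the abundant subunit of prolyl hydroxylase, was at 605 ± 83.8 and 481 ± 95.7 CPM (-0.33 ± 0.28, adjusted p = 0.546, edgeR). At GV the list median was 0.33, and Serpinh1 was at 1.38 ± 0.349 CPM in the control. Crtap, the gene at the MII median, held few reads there, 28 and 13 in control and 6 and 0 in knockout libraries. Granulosa and cumulus markers had an MII median of -2.0, and blood and immune markers one of -2.57. Whether the lower collagen genes share a source with these markers was not tested.

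Among the engulfment partners of Adgrb1, 10 were tested and 1 passed at MII. Axl, a receptor kinase that also binds phosphatidylserine through a bridging ligand, fell from 121 and 92 reads (3.85 ± 1.14 CPM) to 1 and 0 reads (adjusted p = 0.0182, edgeR), a ratio of 227 with a counting interval of 40.4 to 9022, and lost the call without knockout MII library 2 (adjusted p = 0.0564). Of the other family members, Adgrb3 had a level of 17.4 ± 0.938 CPM in the control and 25.5 ± 2.06 CPM in the knockout at MII (0.55 ± 0.39, adjusted p = 0.457, edgeR). Adgrb2 had 19 and 17 control reads and 39 and 1 knockout reads at MII and did not pass. Rac1, the most abundant, differed by 0.13 ± 0.25 (adjusted p = 0.827, edgeR).

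In the UFM1 pathway of Odr4, 8 partners were tested and 1 passed at MII. Ddrgk1, which anchors the UFM1 ligase in the endoplasmic reticulum, fell from 27 and 27 reads (0.965 ± 0.104 CPM) to 1 and 0 reads (adjusted p = 0.00432, edgeR), a ratio of 57.6 with a counting interval of 9.92 to 2318. It lost this call in a fit of the MII libraries alone (adjusted p = 0.157). At GV, Ddrgk1 had a level of 30.4 ± 1.88 CPM in the control and 26.8 ± 3.31 CPM in the knockout. Ufsp2, the partner of ODR4, was at 20.9 ± 0.872 and 16.3 ± 0.515 CPM at MII (-0.36 ± 0.32, adjusted p = 0.566, edgeR), and Ufl1, the ligase, differed by 0.36 ± 0.29 (adjusted p = 0.522, edgeR).

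Of 18 spliceosome partners of Mfap1b, 1 passed: Sart1, of the tri-snRNP, rose at MII from 15.0 ± 0.930 to 37.4 ± 2.74 CPM (1.32 ± 0.27, adjusted p = 0.0226, edgeR). It lost the call without control MII library a, control MII library b or knockout MII library 2 (adjusted p from 0.061 to 0.0948) and in a fit of the MII libraries alone (0.0667). Smu1, the most abundant of them, differed by -0.10 ± 0.33 at MII (adjusted p = 0.915, edgeR). In the catecholamine list, Th, which makes the first step towards the substrate of Pnmt, was present at GV at 179 ± 47.0 CPM with and 134 ± 30.6 CPM without BAF250a and did not pass at either stage (adjusted p = 0.835 and 0.226, edgeR). Dbh, the enzyme just before Pnmt, was at 5.75 ± 0.727 and 2.68 ± 0.221 CPM at GV (-1.10 ± 0.80, adjusted p = 0.746, edgeR), and Ddc, between them, had 0 reads in the 4 control libraries. The most abundant gene of that list was Gch1 (0.32 ± 0.28 at MII, adjusted p = 0.557, edgeR).

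The immune partners were scarce. Of 13 inflammasome genes 4 were tested and of 10 lectin pathway genes 3, and none passed at GV or MII with edgeR or DESeq2 or had an unadjusted p below 0.05. Naip2 and Mbl1, the other mannose-binding lectin gene, had 0 reads in all 8 libraries. Naip1, in contrast, was read in all 8, at 14.0 ± 4.91 CPM in control GV and 1.00 ± 0.169 CPM in control MII. Casp8 (-0.77 ± 0.45 at MII, adjusted p = 0.347, edgeR) and Masp1 (1.10 ± 0.66, adjusted p = 0.369, edgeR) were the most abundant of the 2 lists. The same held for 8 telomerase and vault genes: Tert was at 36.4 ± 4.93 and 38.7 ± 1.48 CPM at GV, and Dkc1, the most abundant, differed by 0.14 ± 0.30 at MII (adjusted p = 0.852, edgeR). For RANKL signalling, Nfatc1 differed by -1.52 ± 0.67 at MII (adjusted p = 0.218, edgeR), and none of the 3 tested genes passed with edgeR or DESeq2, 1 of them with an unadjusted p below 0.05.

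The loss pattern was shared by many other genes. Of all tested genes, 375 were more than 4-fold lower in the knockout at both stages with a control level above the floor, 331 of them outside chromosome 4, and 1568 were lower by this measure mainly at MII, 1475 of them outside chromosome 4. By correlation with the mean profile of the genes lost at both stages (Pearson r of log2(CPM + 1) over the 8 libraries, which share 4 groups), the 5 most similar were Cuedc1 (0.975), Car10 (0.969), Pim2 (0.966), Gm6205 (0.96) and Arl8a (0.958). Arl8a, a small GTPase of lysosomes, was at 71.9 ± 11.6 and 5.13 ± 0.832 CPM at GV and 72.8 ± 7.82 and 4.73 ± 1.61 CPM at MII in control and knockout oocytes. For the genes lost mainly at MII, the most similar were Pmvk (0.995), Tpm1 (0.994), Zfp963 (0.988), Napg (0.984) and Col4a2 (0.981). Col4a2, a chain of basement membrane collagen, was at 12.2 ± 0.414 and 6.87 ± 0.541 CPM at GV and 7.17 ± 1.72 and 0.164 ± 0.232 CPM at MII. Pim2, Tpm1 and Napg were less than 4-fold lower at each stage, so a high r marks the shape of a profile over libraries and not the size of the loss.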

How the data were processed

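The deposited values were read counts per Ensembl gene in 1 table, which the authors made, per the submitters' processing notes, by aligning to mm10 with Bowtie2 and counting with HTSeq; edgeR is named there too. The sources used here give no versions, read length, annotation or strand setting. A control MII name heads 2 columns, per the file headers; both entered as that group, called a and b at will, and 0 value columns were unused. Entries that name no gene held 22.0% to 35.1% of a library's reads and stayed out of all totals. Replicate columns differed by more than sampling noise (chi-square per degree of freedom 39.1 to 84.8).

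The fit used edgeR 4.0.16 under R 4.3.3: filterByExpr with the 4 groups (15572 genes), TMM scaling, 1 term per group over all 8 libraries (4 residual and 6.3 prior degrees of freedom) and the two-sided quasi-likelihood F-test. P-values were Benjamini-Hochberg adjusted over all genes tested and called below 0.05. Since no label ties replicates to separate animals, these p-values measure only how libraries vary, which may be technical. The SE was derived as the log2 fold change over the root of F. Levels in CPM of single genes are scaled by TMM; summed CPM of markers are not. TPM used GENCODE M21 exon lengths, which also gave positions (mm10). Against groups at 0, folds use a floor of 3 counts per library, which covers counting error only. Alternatives used RLE or total scaling, other filters, fits of 1 stage, DESeq2 1.42.0, omission of each library and a replicate term. The scripts were tested on simulated counts.

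The 9 genes and all lists were chosen with earlier results of these data known. The genes named are the 9, Mfap1a, Arid1a, each partner gene that passed, each gene that passed among the 3 nearest neighbours a side, the most abundant partner per list and the 5 most similar profiles per class. Others were chosen after their values were seen, such as Th, Dbh, Ddc, Crtap, Adgrb2, Adgrb3, Ufsp2, Tert, Naip1, Naip2 and Mbl1. So were the untested neighbours, the single cell type markers and those named within 500 kb.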

Additional observations from a re-analysis of the deposited data

Results flagged for a closer look

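Tep1 stood out because its knockout effect changed direction between the stages. The fitted log2 difference at GV was 0.83 ± 0.48, with both knockout libraries (486 and 666 reads) above both controls (308 and 396 reads). At MII both knockout libraries held 0 reads and the controls 42 and 24. Because Tep1 was picked for its loss at MII, the difference between the stages was not tested.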

How the results depend on the processing

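Of 237 values of the 9 genes' fitted differences under alternatives, 214 moved by less than 1 SD, 23 moved by more. The sign changed for Odr4 at GV (0.23 without control GV library 2) and for Adgrb1 between control MII and control GV (from -0.03 to 0.36 without control GV library 1 and 0.24 without control MII library b). Genes more than 4-fold lower numbered 5 at GV in every alternative; at MII they numbered 9, or 8 without control MII library a. The class lost at both stages held 5 genes, or 4 without control MII library a and 4 with an 8-fold in place of the 4-fold limit.

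Calls over all genes at GV (154) became 527 without a filter, 702 with the GV libraries alone, 1522 with the replicate number as a block, 526 with DESeq2 and 29 to 187 without 1 library. At MII (800) they became 1829 without a filter, 392 with the MII libraries alone, 1773 with DESeq2 and 440 to 771 without 1 library. Neighbour calls at GV (1) became 0 with library totals, with a mean of 5 CPM and with 1 neighbour a side, 2 without a filter and within 500 kb, 3 with the GV libraries alone and with DESeq2, 8 with the replicate block, and 0 to 1 without 1 library. At MII (3) they became 6 without a filter, 1 with a mean of 5 CPM and with 1 neighbour a side, 9 within 500 kb, and 1 to 3 without 1 library. Partner calls at GV (0) became 3 with the replicate block. At MII (4) they became 8 without a filter, 2 with a mean of 5 CPM and with the MII libraries alone, 7 with DESeq2, and 2 to 5 without 1 library. The cause of these shifts was not tested.

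The 2 GV replicate numbers are not shown to pair the samples (r = 0.0985 between the genotypes' replicate differences). No paired analysis was possible at MII because the control columns carry no replicate number. Library totals shifted the median of all genes by -0.27 at GV and -0.07 at MII.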
